A study of Mus musculus with 6 samples.

Results

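The proteasome genes of splenic regulatory T cells (Treg cells) were examined by RNA-seq in 6 libraries, 3 from mice labelled MAZR-cKO and 3 from mice labelled WT. A gene was a member where its symbol began with Psma, Psmb, Psmc, Psmd, Psme, Psmf or Psmg followed by a digit, which held for 50 of the 46078 genes in the table. By role these were 8 alpha and 8 beta subunits of the 20S core, 3 immunoproteasome subunits (Psmb8, Psmb9 and Psmb10), 6 ATPases and 14 other genes of the 19S regulatory particle, 5 activators, 1 inhibitor and 4 assembly chaperones. The remaining gene, Psmc3ip, matched by name alone: it encodes a cofactor of meiotic recombination and is no proteasome subunit.

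MAZR is a zinc finger transcription factor encoded by Patz1. The MAZR-cKO mice carried loxP-flanked MAZR alleles, a Cre recombinase under Cd4 control and the DEREG transgene, and the WT mice carried DEREG without that deletion. DEREG places an eGFP reporter and a diphtheria toxin receptor under Foxp3 control, so the sorted CD4+eGFP+ cells of both genotypes carried it. The mice were C57BL/6 and 6 to 8 weeks old. Cd4-driven Cre acts in all T cells that pass through the CD4-expressing thymic stage, so the deletion was not designed to be limited to Treg cells. The labels do not say whether a library came from 1 animal or a pool, so p-values describe library-to-library spread, which may be technical.

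The proteasome degrades proteins tagged with ubiquitin. Its 20S core is a barrel of outer alpha rings, which form the gate, and inner beta rings, in which Psmb6, Psmb7 and Psmb5 carry the caspase-like, trypsin-like and chymotrypsin-like sites. In lymphocytes and in cells exposed to interferon, Psmb9, Psmb10 and Psmb8 are built in at these places to give the immunoproteasome, known for making peptides for MHC class I. The 19S particle binds, unfolds and feeds in the substrates, and PA28 caps (Psme1 with Psme2, or Psme3) open the gate without ubiquitin.

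The libraries held 15481565 to 28184456 reads, and 1 read was worth 0.0347 to 0.0621 CPM (reads per fixed library total). Patz1, the gene meant to be deleted, stood at 177, 181 and 179 CPM under the label MAZR-cKO, against 71.6, 74.9 and 67.6 CPM under WT (replicates 1, 2 and 3 of each). It was thus higher where the label calls for a deletion, and because a gene-level value sums all exons it does not show whether the deleted segment was present. Every direction given here is therefore that of libraries labelled MAZR-cKO against libraries labelled WT. Of the 6 Treg markers, 4 had a fold change below 0 and 2 above, and limma called 0 at an adjusted p under 0.05. Foxp3 ranged over 1313 to 1415 CPM under MAZR-cKO and 1252 to 1371 CPM under WT. Cd4 lay above all WT libraries, at 942 to 1019 CPM under MAZR-cKO and 901 to 914 CPM under WT. Il2ra varied more, over 667 to 1037 CPM under MAZR-cKO and 778 to 1090 CPM under WT, and was lower under MAZR-cKO within each replicate number. The CD8 T cell markers were low but present: Cd8a stood at 1.60 to 1.81 CPM under MAZR-cKO and 1.37 to 1.76 CPM under WT, and Cd8b1 at 13.3 to 15.6 CPM under MAZR-cKO and 11.7 to 13.9 CPM under WT. Summed markers of other blood cells differed between libraries, and they are given beside the members' levels.

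The promoters of 4 catalytic subunits are shown because they mark the constitutive and interferon-inducible forms whose balance is described next. Each is the 250 bases before the RefSeq transcription start (GRCm38.p6), written 5' to 3' on the gene's strand. They lie at chr14:54617996-54618245 (minus strand) for Psmb5, chr11:70525107-70525356 (plus) for Psmb6, chr17:34187331-34187580 (minus) for Psmb9 and chr17:34197945-34198194 (plus) for Psmb8. Capitals mark the antioxidant response element core TGACNNNGC in Psmb5 and Psmb6, and ATTGG, the CCAAT box read from the other strand, in Psmb9. No searched motif was found in the Psmb8 stretch. The Psmb8 and Psmb9 stretches lie within the annotated bounds of their own genes (chr17:34197721-34201454 and chr17:34181987-34187764). Bases before the outermost annotated starts of these 2 genes were thus not shown.
Psmb5: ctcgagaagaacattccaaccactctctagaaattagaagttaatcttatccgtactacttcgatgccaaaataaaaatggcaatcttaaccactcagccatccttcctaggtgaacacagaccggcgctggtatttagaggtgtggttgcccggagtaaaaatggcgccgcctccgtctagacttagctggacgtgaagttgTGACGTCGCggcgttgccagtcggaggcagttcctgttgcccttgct
Psmb6: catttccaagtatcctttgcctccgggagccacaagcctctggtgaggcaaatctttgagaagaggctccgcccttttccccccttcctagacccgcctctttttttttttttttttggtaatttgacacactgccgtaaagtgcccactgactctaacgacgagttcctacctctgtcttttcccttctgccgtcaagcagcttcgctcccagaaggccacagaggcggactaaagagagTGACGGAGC
Psmb9: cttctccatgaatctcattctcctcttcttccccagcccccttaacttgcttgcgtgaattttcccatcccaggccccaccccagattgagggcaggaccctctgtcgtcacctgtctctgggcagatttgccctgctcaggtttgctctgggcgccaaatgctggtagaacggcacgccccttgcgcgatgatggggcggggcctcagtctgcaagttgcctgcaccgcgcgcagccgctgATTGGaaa
Psmb8: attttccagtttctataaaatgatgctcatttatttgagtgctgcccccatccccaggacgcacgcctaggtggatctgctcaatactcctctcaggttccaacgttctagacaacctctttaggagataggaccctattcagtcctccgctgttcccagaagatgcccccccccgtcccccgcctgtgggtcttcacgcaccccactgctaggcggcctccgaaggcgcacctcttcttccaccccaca
The Psmb5 match runs from position -47 to -39 and the Psmb6 match from -9 to -1, counted back from the start, while the Psmb9 match runs from -8 to -4. Over windows from 250 bases before to 50 after the start, 6 of the 42 members with a promoter in the table held the TGACNNNGC core on either strand (14.3%), against 14.0% of 27018 genes. A CCAAT box on either strand was held by 15 members (35.7%), against 41.1% of genes. A match describes these letters and is neither a bound site nor a cause of any level.

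Levels of different genes were compared per kilobase of annotated exon. Psme1 (PA28 alpha) stood highest at 123 CPM per kb over all 6 libraries, followed by Psmb8 at 122 and Psmb10 at 82.5 CPM per kb. The median over the 12040 genes that passed the filter on low values (at least 1 CPM in at least 3 libraries) was 7.80 CPM per kb. Psmb9 stood at 59.9 CPM per kb, and the constitutive counterparts lay lower: Psmb6 at 46.1, Psmb5 at 19.8 and Psmb7 at 16.3 CPM per kb. The immunoproteasome subunits thus supplied most of the catalytic transcripts in Treg cells under either label. The 3 of them made up 75.1, 76.1 and 75.8% of the per-kb level of the 6 catalytic genes in libraries labelled MAZR-cKO, against 75.3, 77.4 and 77.6% in WT. The shares overlapped, with means of 75.7 ± 0.54% under MAZR-cKO and 76.8 ± 1.3% under WT (SD, n = 3 each). Within each replicate number the library labelled MAZR-cKO had the lower share. The ranks of single genes depend on which exons are counted. Per kb of longest coding transcript, Psmb8 stood at 244 under MAZR-cKO and 261 in WT, above Psme1 at 241 and 250. Psmb10 then stood at 103 and 112, below Psmb9 at 155 and 170. By that length Psma7 lay above Psma6, Psmc3 and Psmc4 above Psmc5, and Psmc6 below Psmc2. Ranks per kb given below are those of annotated exons.

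The ratio of Psmb8 to Psmb5 per kb was 5.71, 5.91 and 5.64 in libraries labelled MAZR-cKO, against 5.87, 6.79 and 7.07 in WT. It averaged 5.75 ± 0.14 under MAZR-cKO and 6.57 ± 0.63 under WT; the groups overlapped, and MAZR-cKO was lower within each number. Against the longest coding transcript instead of all exons, it was 11.9 ± 0.29 under MAZR-cKO and 13.7 ± 1.3 under WT, so the size of the ratio depends on which exons are counted. Psmb9 over Psmb6 came to 1.26 ± 0.02 under MAZR-cKO and 1.34 ± 0.07 under WT, again with overlap and lower under MAZR-cKO within each number. Psmb10 over Psmb7 was 5.03 ± 0.19 under MAZR-cKO and 5.10 ± 0.49 under WT per kb of exon, and 2.22 ± 0.08 under MAZR-cKO and 2.25 ± 0.21 under WT per kb of longest coding transcript, and it was lower under MAZR-cKO in 1 of 3 pairs. Psmb5 is uncertain for another reason: 57.1% of the 50-base words of its transcripts also occur in other annotated genes, against 5.83% for Psmb8, so reads of Psmb5 could be split with copies.

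**Figure D1:**
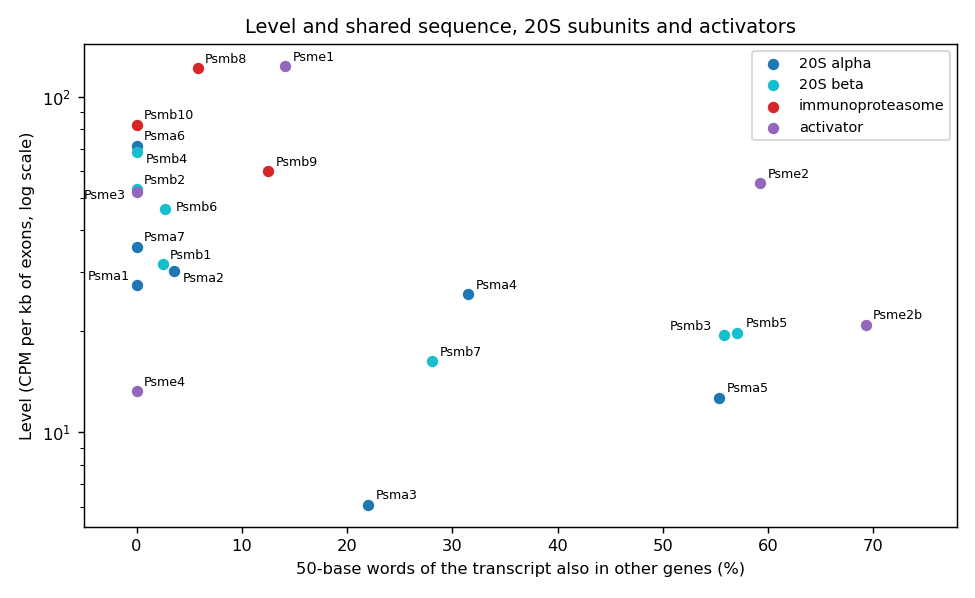
Level per kilobase of annotated exon (CPM per kb, log axis, mean of 6 libraries) of the 20S subunits and activators, against the percentage of each gene's 50-base words found in other genes. Psme1 and Psmb8 stand highest with 14.1 and 5.83% shared, while Psme2b, Psme2, Psmb5, Psmb3 and Psma5 share more than 50%.

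Between the labels, none of the 48 members that passed the filter, Psmc3ip included, passed the threshold of the test. Per library, the members' median deviation from their own 6-library mean was -0.060, -0.076 and 0.060 log2 units in MAZR-cKO 1, 2 and 3, against 0.018, 0.030 and 0.033 in WT 1, 2 and 3. Replicates 1 and 2 of MAZR-cKO thus lay below all WT libraries and MAZR-cKO 3 above all of them. Summed over members, the level was 4085, 4026 and 4433 CPM under MAZR-cKO, against 4330, 4390 and 4426 CPM in WT. limma on log2(CPM + 0.5) called 0 of 48 members at an adjusted p under 0.05, where 0.0415% of all tested genes (5 of 12040) were called. At an unadjusted p under 0.05, 1 member was lower (Psmb9) and 0 were higher, where 2.92% and 2.33% of all tested genes were. edgeR on the recovered reads called 0 members and 6 genes (0.0498%), with 0 members at an unadjusted p under 0.05, where 2.26% of all genes were lower and 2.97% higher. DESeq2 called 0 members and 34 genes (0.282%), with 0 members at that unadjusted p, where 1.64% of all genes were lower and 1.93% higher. In bulk RNA, fewer cells of a type and less RNA per cell cannot be told apart.

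The fold change was below 0 for 40 of the 48 members, or 83.3%, against 56.1% of all tested genes. Other scalings moved both shares, to 37 members and 51.1% of all genes under quantile normalization and to 39 members and 51.2% with edgeR. In the limma fit its median over members was -0.06, against -0.01 over all tested genes, and it ran from -0.14 (Psmg1) to 0.11 (Psma3), with limma adjusted p-values of 0.914 to 0.996. In that fit, which ignores replicate numbers, all 48 intervals of 95% lay within 0.5 log2 units of 0. Their bounds ran from -0.43 (Psmg1) to 0.32 (Psma3), and 47 of them included 0. Levels of the members varied alike across libraries: the median correlation between pairs over the 6 libraries was 0.557, against 0.012 between all tested genes, a description of points that share libraries and scaling. Among the classes it was 0.803 for the immunoproteasome, 0.716 for the ATPases and 0.163 for the alpha subunits.

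**Figure D2:**
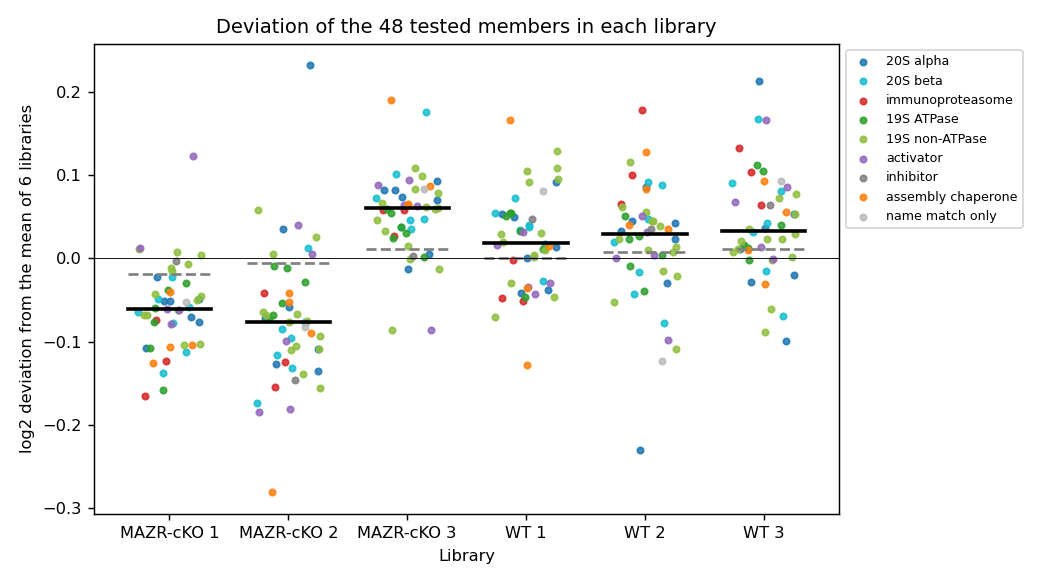
Deviation of each of the 48 tested members from its own mean over 6 libraries (log2 units), by library, with their median as a black bar and that of all tested genes as a grey dashed bar. The medians are -0.060, -0.076 and 0.060 in MAZR-cKO 1 to 3 and 0.018 to 0.033 in the WT libraries.

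The libraries differed within a label. MAZR-cKO 2 held the lowest of the 6 values for 25 of 48 members (52.1%) and MAZR-cKO 1 for 13 (27.1%), against 22.2% and 23.5% of all tested genes. MAZR-cKO 3 held it for 1 member (2.08%), against 13.7% of all tested genes. MAZR-cKO 3 held the highest value for 17 of 48 members (35.4%), against 17% of all tested genes. Between libraries of the same number, members were lower under MAZR-cKO in 43 of 48 in pair 1, 38 in pair 2 and 20 in pair 3, where 56.9%, 53.3% and 51.4% of all tested genes were. Markers of other cell types were summed by type, 5 genes each for the first 3 types, with 0 genes of these lists at 0 in every library. B and plasma cell markers came to 58.2, 69.7 and 26.6 CPM in MAZR-cKO 1, 2 and 3, against 46.3, 43.1 and 37.2 CPM in WT. Myeloid markers summed to 150.1, 129.6 and 82.1 CPM under MAZR-cKO, against 122, 111 and 108 CPM in WT, and dendritic markers to 7.39, 7.25 and 2.70 CPM under MAZR-cKO, against 5.23, 6.15 and 4.76 CPM in WT. For these 3 types the sums were highest in MAZR-cKO 1 and 2, where proteasome levels were lower, and lowest in MAZR-cKO 3, which also had the most reads. Single markers did not all keep the order of their sum. Jchain was higher in WT 1 than in MAZR-cKO 1, Cst3 was highest in WT 1 and Siglech was lowest in WT 3. The sums of the other blood cells had another order: the 3 NK markers came to 22.9, 15.7 and 10.5 CPM under MAZR-cKO, against 16.5, 16.1 and 9.51 CPM in WT. The 6 red cell and platelet markers came to 19.5, 14.9 and 9.12 CPM under MAZR-cKO, against 46.2, 25.1 and 13.2 CPM in WT. All 4 tested red cell markers had a fold change below 0, and limma with the replicate block called 1 of them, Hbb-bs (log2 fold change -0.93, adjusted p = 0.021). For markers and reads alike, their part in the members' levels was not tested. Y-linked transcripts summed to 116, 0.48 and 199 CPM under MAZR-cKO, against 217, 164 and 276 CPM in WT. The X-linked Xist stood at 1145, 1552 and 605 CPM under MAZR-cKO, against 561, 774 and 355 CPM in WT. Both kinds of transcript were thus present in every library except MAZR-cKO 2, whose Y-linked sum was 0.48 CPM. Whether such libraries pooled male and female animals was not tested. With the Y-linked sum as a covariate the members' median fold change was -0.028, against -0.062 without it. The covariate was log2(sum + 0.5), which mainly sets MAZR-cKO 2 apart from the other libraries. With MAZR-cKO 2 left out instead, the median was -0.036. MAZR-cKO 3 is the library where the members lay above all WT libraries, so leaving it out by itself favours lower members. Without it, limma called 14 genes (0.116%) and 0 members. At an unadjusted p under 0.05, 16 of 48 were then lower, where 6.09% of all tested genes were. The members' median fold change was -0.102 without MAZR-cKO 3, -0.047 without MAZR-cKO 1 and -0.036 without MAZR-cKO 2.

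When replicate numbers entered the limma fit as blocks, 46 genes were called (0.382%) and 0 members. The block put 6 members lower at an unadjusted p under 0.05, where 6.66% of all tested genes were: Psmb1, Psmb8, Psmb9, Psmb10, Psmc5 and Psme2. At that p 0 members were higher (3.98% of all tested genes). edgeR with the same block called 37 genes (0.307%) and 0 members, and put only Psmb9 and Psmc5 lower at an unadjusted p under 0.05, 2 of 48 members (4.17%), where 5.4% of all tested genes were. The members' share at that p thus lay above the background with limma and below it with edgeR. In 15 members all 3 MAZR-cKO libraries lay below the WT library of the same number, where 19.2% of all tested genes did, and in 1 member, Psmd9, all lay above it (12.9%). With the block and without pair 3, 279 genes (2.32%) and 0 members were called. At an unadjusted p under 0.05, 18 members were then lower, where 10.4% of all tested genes were. Pair 3 had the fewest members lower under MAZR-cKO, so leaving it out by itself favours lower members. The members' median fold change with the block was -0.107 without pair 3, -0.040 without pair 1 and -0.042 without pair 2. The smallest adjusted p of a member with the block was 0.342 (Psmb9).

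All 3 immunoproteasome subunits lay lower on average, in overlapping libraries. Psmb8, which replaces Psmb5 and is encoded in the MHC region at chr17:34197721-34201454 (mm10, plus strand), stood at 365, 398 and 427 CPM in MAZR-cKO 1, 2 and 3, against 397, 429 and 449 CPM in WT. The groups overlapped, and within each number the MAZR-cKO library was the lower. The log2 fold change was -0.10 (SE 0.07, limma adjusted p = 0.917). With the replicate block its SE was 0.04 (limma adjusted p = 0.414). Psmb9, which replaces Psmb6 and lies at chr17:34181987-34187764 (minus strand), stood at 208, 196 and 223 CPM under MAZR-cKO, against 218, 234 and 235 CPM in WT. MAZR-cKO 1 and 2 lay below all WT libraries and MAZR-cKO 3 within them. Its means were 209 ± 13 CPM under MAZR-cKO and 229 ± 9.4 CPM in WT (SD, n = 3 each), a log2 fold change of -0.13 (SE 0.06). The unadjusted limma p was 0.045 and the adjusted p 0.914. With the replicate block these limma values were 0.017 and 0.342. Of the 50-base words of Psmb9, 12.5% occur in other genes, all of them in Tap1, which it overlaps on the opposite strand. Psmb10, which replaces Psmb7, stood at 129, 129 and 146 CPM under MAZR-cKO, against 135, 159 and 147 CPM in WT, and the groups overlapped. Psmb10 was lower under MAZR-cKO within each number (log2 differences -0.07, -0.30 and -0.006 in pairs 1, 2 and 3). Its log2 fold change was -0.13 (SE 0.07, limma adjusted p = 0.914, and 0.462 with the replicate block). The summed level of the 3 was 740 ± 49 CPM under MAZR-cKO and 801 ± 44 CPM in WT.

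**Figure D3:**
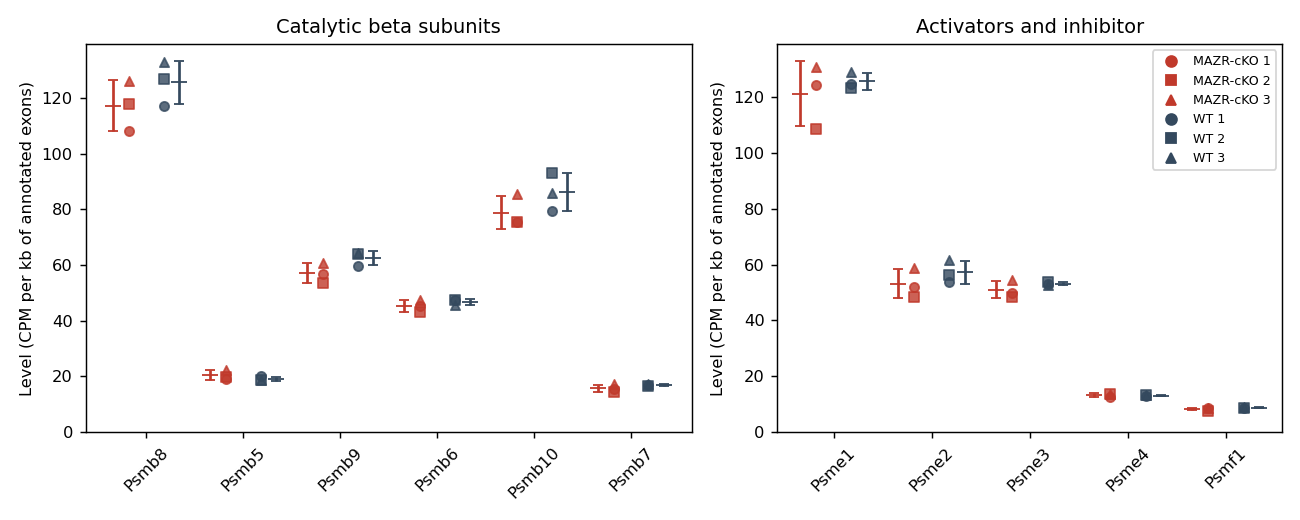
Level (CPM per kb of annotated exon) of the 6 catalytic beta subunits, the activators and the inhibitor in each library, libraries labelled MAZR-cKO left of WT, points by replicate with the mean and SD (n = 3) beside them. Psmb8 averages 117 ± 9.1 under MAZR-cKO and 126 ± 7.8 CPM per kb in WT, and the groups overlap for each gene shown except Psmf1.

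The constitutive catalytic subunits did not pass the test either. Psmb5 stood at 17.03, 17.9 and 20.1 CPM under MAZR-cKO, against 17.98, 16.8 and 16.9 CPM in WT, with a log2 fold change of 0.09 (SE 0.09). Psmb6 stood at 84.9, 80.7 and 89.2 CPM under MAZR-cKO, against 88.7, 89.2 and 85.4 CPM in WT. For both genes the groups overlapped. Psmb7 stood at 53.3, 49.3 and 58.6 CPM under MAZR-cKO, against 57.8, 56.5 and 59.3 CPM in WT, and 28.1% of its 50-base words occur in other genes, all of them in Nek6, which it overlaps on the other strand.

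Among the beta subunits without a catalytic site, Psmb1 separated the labels. It stood at 138, 133 and 149 CPM under MAZR-cKO, against 149, 155 and 150 CPM in WT, with all libraries labelled MAZR-cKO below all WT libraries by a narrow margin. The log2 fold change was -0.12 (SE 0.05, limma adjusted p = 0.914, and 0.435 with the replicate block). The exact permutation p was 0.1, the smallest that 3 against 3 libraries allow. Any gene without overlap gets that p, so it adds nothing to the separation. Of all tested genes 5.74% were lower without overlap. Psmb4, at 68.4 CPM per kb the highest beta subunit other than those of the immunoproteasome, stood at 123, 126 and 138 CPM under MAZR-cKO, against 131, 142 and 141 CPM in WT. Psmb2 and Psmb3 had fold changes of -0.04 and -0.12. Over the 7 tested beta subunits 6 were below 0, with a median of -0.09. Psmb11, the beta subunit of the thymic epithelial proteasome, had 0 reads in every library, which allows levels of up to 0.104 to 0.186 CPM (3 reads, counting error only).

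The alpha subunits form the gate of the core. Psma7 stood at 106, 105 and 109 CPM under MAZR-cKO, against 110, 116 and 112 CPM in WT, and the groups did not overlap (log2 fold change -0.08, SE 0.04, limma adjusted p = 0.914). Psma6, the highest alpha subunit per kb, stood at 81.7, 83.7 and 93.1 CPM under MAZR-cKO, against 91.4, 90.0 and 88.7 CPM in WT, and the groups overlapped. Psma3, the lowest, stood at 22.4, 27.8 and 23.7 CPM under MAZR-cKO, against 23.0, 23.1 and 22.0 CPM in WT. Its fold change was 0.11, and it was highest in MAZR-cKO 2. The fold changes of Psma1, Psma2, Psma4 and Psma5 ran from -0.08 to 0.04. Over 7 tested alpha subunits 5 were below 0, with a median of -0.06. Psma8, a testis form that replaces Psma7 in germ cells, had 0 to 3 reads per library and was not tested.

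In the 19S particle, the 6 ATPases that unfold substrates all had a fold change below 0, with a median of -0.05. Psmc5, the highest of them per kb, stood at 72.0, 77.4 and 82.6 CPM under MAZR-cKO, against 82.3, 81.9 and 86.9 CPM in WT. MAZR-cKO 3 lay within the WT range and MAZR-cKO 1 and 2 below it. The log2 fold change was -0.12 (SE 0.06, limma adjusted p = 0.914, and 0.431 with the replicate block). Psmc2, the lowest per kb, stood at 81.8, 82.2 and 89.5 CPM under MAZR-cKO, against 89.5, 87.6 and 86.9 CPM in WT, and the groups overlapped. Psmc3 stood at 144, 144 and 147 CPM under MAZR-cKO, against 148, 147 and 151 CPM in WT, without overlap and with a fold change of -0.04. Psmc1, Psmc4 and Psmc6 had fold changes from -0.08 to -0.01.

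Of the 14 other 19S genes 11 were below 0, with a median of -0.05. Psmd2, a scaffold of the base that docks ubiquitin shuttles, stood at 175, 164 and 177 CPM under MAZR-cKO, against 189, 179 and 180 CPM in WT, and the groups did not overlap. Of its 50-base words 26.4% occur in other genes. Psmd6, a lid subunit, stood at 48.9, 47.3 and 50.003 CPM under MAZR-cKO, against 53.9, 49.7 and 53.3 CPM in WT, overlapping by 1 library. Psmd4, the ubiquitin receptor and the highest of the class per kb, stood at 135, 129 and 141 CPM under MAZR-cKO, against 137, 134 and 138 CPM in WT. Psmd5, Psmd9 and Psmd10 are assembly chaperones of the base rather than subunits of the finished particle. Psmd9 stood at 22.4, 23.2 and 23.0 CPM under MAZR-cKO, against 21.2, 21.5 and 22.4 CPM in WT, the only member higher without overlap (log2 fold change 0.08, SE 0.07, limma adjusted p = 0.926). Psmd10 (X-linked) had a fold change of 0.02 and Psmd5 one of -0.08. The deubiquitinase Psmd14, which strips ubiquitin from substrates, had a fold change of -0.05, and those of Psmd1, Psmd3, Psmd7, Psmd8, Psmd11, Psmd12 and Psmd13 ran from -0.10 to 0.01. In all, 5 members were lower without overlap (Psma7, Psmb1, Psmc3, Psmd2 and Psmf1), where 5.74% of all tested genes were, and 1 higher, where 5% were. Psmc3, Psmd2 and this count were singled out after their values were seen.

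The activators overlapped between labels. Psme1 stood at 275, 240 and 289 CPM under MAZR-cKO, against 275, 272 and 285 CPM in WT, with the one low value in MAZR-cKO 2. Psme2 (PA28 beta), its partner in the interferon-inducible cap, stood at 91.8, 85.5 and 104 CPM under MAZR-cKO, against 94.7, 99.2 and 109 CPM in WT. Within each replicate number Psme2 was lower under MAZR-cKO. Its log2 fold change was -0.11 (SE 0.08, limma adjusted p = 0.917, and 0.469 with the replicate block). Psme2 and the single-exon Psme2b share sequence, with 59.3% and 69.3% of their 50-base words in other genes, so their reads could be split; Psme2b had a fold change of 0.03. Psme3, the nuclear PA28 gamma, stood at 147, 143 and 160 CPM under MAZR-cKO, against 157, 159 and 155 CPM in WT. Psme4 (PA200), also a nuclear activator, stood at 106, 114 and 116 CPM under MAZR-cKO, against 108, 111 and 111 CPM in WT. For both nuclear activators the groups overlapped. The inhibitor Psmf1 (PI31) stood at 54.7, 49.5 and 54.9 CPM under MAZR-cKO, against 56.6, 56.1 and 57.3 CPM in WT, lower without overlap (log2 fold change -0.10, SE 0.06, limma adjusted p = 0.914).

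The 4 assembly chaperones of the 20S core, which pair and align the alpha subunits, all had fold changes below 0. Psmg4, the highest per kb, stood at 10.8, 10.9 and 12.4 CPM under MAZR-cKO, against 11.8, 11.96 and 12.1 CPM in WT. Psmg3, the lowest, stood at 8.51, 8.85 and 9.64 CPM under MAZR-cKO, against 8.38, 10.1 and 9.85 CPM in WT. Psmg1 had the lowest fold change of any member, -0.14 with an interval from -0.43 to 0.14, on 14.7, 13.2 and 18.4 CPM under MAZR-cKO, against 18.1, 16.6 and 16.2 CPM in WT. For all 3 genes the groups overlapped, as they did for Psmg2, whose fold change was -0.01. Psmc3ip, the name match, stood at 2.67 to 3.05 CPM under MAZR-cKO, against 2.58 to 3.08 CPM in WT.

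**Figure D4:**
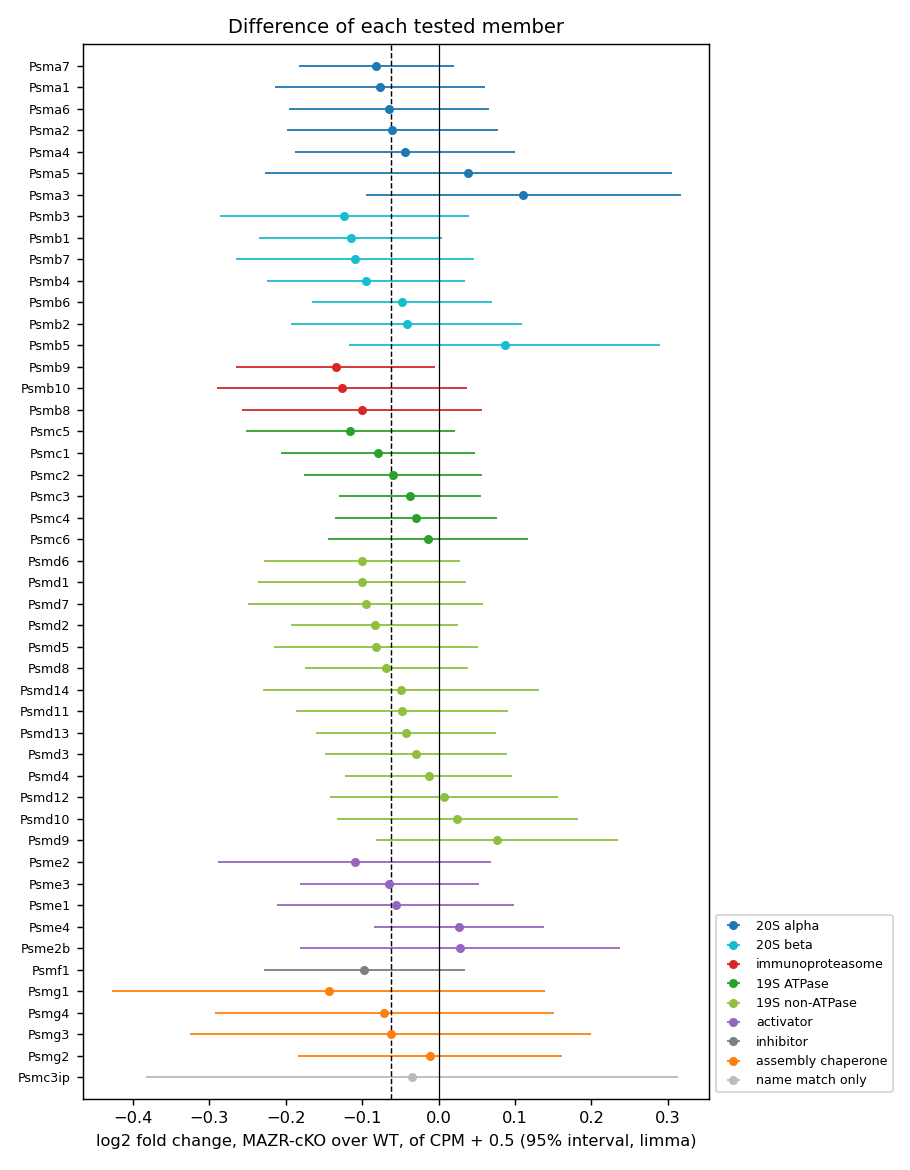
Log2 fold change (libraries labelled MAZR-cKO over WT, on the log2(CPM + 0.5) scale) of each tested member by class, with its 95% interval from limma (unadjusted) and the members' median as a dashed line. The values run from -0.14 to 0.11, 40 of 48 are below 0, and only the interval of Psmb9 excludes 0. The intervals shown are without the replicate block. With it, those of Psmb1, Psmb8, Psmb9, Psmb10, Psmc5 and Psme2 exclude 0.

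Genes around the proteasome were read from 4 lists. Nfe2l1 (NRF1), the transcription factor that raises proteasome genes when proteasome activity falls, stood at 142, 137 and 137 CPM under MAZR-cKO, against 156, 156 and 155 CPM in WT. The groups did not overlap, yet the adjusted p was 0.724 (log2 fold change -0.17, SE 0.04, limma). Of the 14 regulators listed 10 were below 0 (median -0.02) and 0 were called. Members with the TGACNNNGC core, which NRF1 and NRF2 can bind, were 2 below and 4 above 0 (median 0.02), against 31 below and 4 above among 35 without it (median -0.07), a description with no test. Of 17 interferon and antigen-processing genes 14 were below 0 (median -0.07), among them Tap1, the peptide transporter subunit beside Psmb9, at 662, 595 and 726 CPM under MAZR-cKO, against 696, 693 and 766 CPM in WT. Irf1, an interferon-responsive activator of the immunoproteasome genes, stood at 374, 360 and 436 CPM under MAZR-cKO, against 368, 403 and 436 CPM in WT. Of 11 assembly and 19S partners 8 were below 0 (median -0.02), with Pomp, the maturation factor of the core, at 70.4, 66.3 and 75.2 CPM under MAZR-cKO, against 76.7, 74.4 and 74.1 CPM in WT. Of 12 ubiquitin and shuttle genes 10 were below 0 (median -0.05), and limma called 0 genes of any of the 4 lists.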

How the data were processed

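Gene-level values came from 1 table of the whole series. The authors deposited CPM, reads per fixed library total, a unit read here from the values, since each column's sum came to 96.2 to 99.2% of what CPM sums to. The divisor was thus not the sum of the reads in the table, and whether it held scaling factors was not tested. The submitters' processing notes name STAR 2.5.2b and Subread 1.5.1, besides FastQC, edgeR and R 3.4, and the build mm10; strand setting and annotation release are not given in the sources used here, and the kit was stranded and poly(A)-selecting per the labels' protocols. Every value was a whole multiple of 1 read (100% within 0.01 reads), so reads were recovered; the count test on them (edgeR 4.0.16, quasi-likelihood) called 6 genes. The reported fit was limma 3.58.1 (R 4.3.3) with an intensity trend on log2(CPM + 0.5) over 12040 genes with at least 1 CPM in at least 3 libraries, with Benjamini-Hochberg adjustment over all of them. The pseudocount understates changes of low genes. Of the 50 members, 48 passed the filter. Same-numbered libraries carry a shared code of unstated meaning in the labels, and after removing genotype means they correlated at 0.399, 0.381 and 0.379. All being over 0.1, the numbers were taken as pairs, and the fit with the block is given where it changes a count. SEs, p-values and intervals of single genes ignore the pairs unless the block is named, so they do not use that pairing. DESeq2 1.42.0, other scalings and filters, a Y-linked covariate and left-out libraries were alternatives. The limma and edgeR fits without the block were run on simulated counts that had no replicate pairs. The planted changes were larger than those of any member, so that run does not cover differences as small as theirs. Libraries differed by more than counting noise (chi-square per degree of freedom 5.39 to 19.0), so none was a copy. Shared sequence was the share of 50-base words of GENCODE M21 transcripts found in other genes' transcripts. Members named were the catalytic subunits, activators, inhibitor, the highest and lowest of each class per kb and the 6 of smallest p with and without the block; others were chosen after their values were seen. Members and lists were chosen with earlier results of these data known.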

Additional observations from a re-analysis of the deposited data

How the results depend on the processing

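No member was called in any of the 20 settings tried: the smallest adjusted p was 0.1005, and 44 of 959 member values reversed, in 14 members. Genes called over the whole table numbered 5 in the limma fit, 34 with DESeq2, 46 with the replicate block, 37 with edgeR and the replicate block, and 4 to 279 with 1 library or 1 pair left out (14 without MAZR-cKO 3, 279 with the replicate block and without pair 3). The members' median fold change stayed between -0.107 and -0.036 with a library or pair left out and between -0.0645 and -0.028 otherwise. With a Y-linked covariate the class medians were 0.0072 (alpha), -0.033 (beta) and 0.015 (activators), and Psma2 0.0072, Psma4 0.0183, Psmb2 0.0214, Psmc3ip 0.0152, Psmd14 0.0358, Psmd3 0.0041, Psmd4 0.0306, Psme1 0.0403 and Psmg2 0.0103 were above 0; the cause was not tested. Quantile normalization turned Psmc6 (0.0037), Psmd4 (0.0029) and Psmg2 (0.0018), and Psmg2 was 0.0019 with DESeq2, 0.0017 with edgeR and 0.0022 with edgeR and the replicate block. With 1 library or pair left out, ranges crossed 0 for the activators' median (-0.112 to 0.0138), Psma4 (-0.122 to 0.0192), Psma5 (-0.0742 to 0.155), Psmb2 (-0.103 to 0.00572), Psmc3ip (-0.104 to 0.0149), Psmc4 (-0.0568 to 0.0133), Psmc6 (-0.0397 to 0.036), Psmd12 (-0.0736 to 0.0858), Psmd14 (-0.116 to 0.0164), Psmd3 (-0.087 to 0.0115), Psmd4 (-0.0471 to 0.0211), Psme1 (-0.114 to 0.0217), Psme2b (-0.0342 to 0.128) and Psmg2 (-0.0646 to 0.0463). The immunoproteasome share over all libraries, 76.2%, was 74.7% per kb of longest coding transcript, 82.8% in plain CPM, and 86.0, 56.4 and 83.5% for the pairs of Psmb8, Psmb9 and Psmb10 (92.7, 59.9 and 69.0% per kb of longest coding transcript). The block without a pair, the members with little shared sequence and the members without Psmc3ip were alternatives chosen after seeing the data. Precision is limited by 3 libraries per label.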

Other observations

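Several members share a start region with a gene read the other way. Psmb1 and Tbp, which encodes the TATA-binding protein, start 137 bases apart in the annotation. Tbp stood at 41.5, 40.8 and 37.3 CPM in libraries labelled MAZR-cKO, against 36.0, 36.0 and 35.3 CPM in WT, higher without overlap (log2 fold change 0.15, limma adjusted p = 0.914), while Psmb1 was lower without overlap. The search took opposite-strand genes starting within 1000 bases whose start regions did not overlap. The other pairs it found were Psma2 with Mrpl32, Psmc5 with Ftsj3, Psma7 with Ss18l1, Psmc2 with Dnajc2, Psmd10 with Atg4a, Psmg2 with Cep76 and Psme2 with Rnf31. Their partners had fold changes from -0.10 to 0.01 and overlapping libraries. Pairs that overlap at their starts were left out, among them Psmb9 (minus strand, from chr17:34187764) and Tap1 (plus strand, from chr17:34187553). The interferon-stimulated element, searched on both strands as GAAA, any 2 bases and GAAA, was held by 5 of 42 member promoters (11.9%), against 3.99% of genes, and these were Psmb3, Psmd4, Psmd9, Psme1 and Psmg4. The G-rich GGGAGGG was held by 6 members (14.3%), against 23.8% of genes, and all 6 had a fold change below 0 (median -0.07), beside 27 of 35 members without it (median -0.06).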
